A study of Homo sapiens with 18 samples.

Results

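snaR-A is a small noncoding RNA that RNA polymerase III (Pol III) makes from a family of near-identical human genes. The family was taken as every row of the deposited count table whose name starts with SNAR-A, which gave 14 of 175935 rows. The table holds small RNA libraries of HEK293T, a human embryonic kidney line, in 6 groups of 3 libraries. Control cells had been transfected with si-scramble and siSSB cells with si-SSB, both for 48 h with RNAiMAX. From each, RNA was taken as total RNA, nuclear RNA and cytoplasmic RNA, and all libraries carry the label Plus_PNK. The comparisons ask where snaR-A lies in the cell and whether its level depends on SSB, which encodes the RNA chaperone La. The labels do not say whether replicates came from separate cultures, and the study's methods call them biological replicates. The knockdown is a transient transfection of 1 cell line.

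Pol III transcripts end in a run of U residues, which La binds and protects on the newly made RNA. Many of these RNAs, such as tRNAs, later lose the tail and leave La. snaR RNAs descend from Alu elements, which themselves come from the 7SL RNA gene, and occur only in hominids, with expression in testis and in many tumours and cultured lines.

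The 14 rows lie on chromosome 19 in 2 clusters (hg38, 1-based coordinates of the RNA from RefSeq on GRCh38.p14). The first cluster holds 5 copies on the plus strand at chr19:47907678-47945043. The second holds 9 copies on the minus strand at chr19:50092489-50128522. Every row contained exactly 1 RefSeq snaR-A gene, but only 3 of the 14 rows carry the same symbol in the table as in RefSeq, since the table uses 3 names in all. RefSeq symbols are used here, so the table's rows named SNAR-A14 include SNAR-A3 and the 9 copies of the second cluster. The copies of the first cluster lie between genes in GENCODE, 21363 to 37464 nt from SULT2A1 or BSPH1, the nearest protein-coding genes. In the second cluster SNAR-A4 lies between genes, and the other 8 lie in introns of the long noncoding gene ENSG00000287001 on the same strand.

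The 14 genes encode only 3 RNA sequences in the reference genome. They are shown because they are all that sets the RNAs of the copies apart. Capitals mark position 23, counted from the 5′ end, and the end of the RNA, where the sequences differ.

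SNAR-A1 and SNAR-A2 (122 nt): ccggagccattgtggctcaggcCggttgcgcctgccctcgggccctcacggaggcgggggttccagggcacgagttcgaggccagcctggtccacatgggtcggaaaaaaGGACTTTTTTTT
SNAR-A12 and SNAR-A13 (122 nt): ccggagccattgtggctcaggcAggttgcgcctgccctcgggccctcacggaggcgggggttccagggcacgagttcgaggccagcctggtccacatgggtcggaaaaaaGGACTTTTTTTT
SNAR-A3 and the 9 genes of the second cluster, SNAR-A4 to SNAR-A11 and SNAR-A14 (121 nt): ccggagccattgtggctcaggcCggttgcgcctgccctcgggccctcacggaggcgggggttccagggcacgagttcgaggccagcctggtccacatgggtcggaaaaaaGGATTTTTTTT

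Against the SNAR-A1 sequence, SNAR-A12 and SNAR-A13 carry 1 substitution, C23A, and the third sequence lacks 1 base, C114del. All 3 end in 8 T residues, the Pol III stop signal. All 14 genes also hold GTTCGA, the core of the internal Pol III promoter known as the B box, at positions 74 to 79 of SNAR-A1. On either strand GTTCGA occurred in 30.9% of the 165 other rows of 150 to 180 nt on the same chromosome, and a run of 8 T in 15.8%. The 100 bases before the RNA and the 25 after it were identical in all 14 genes. The folding energy predicted by RNAfold was -57.9 kcal/mol for the SNAR-A1 and SNAR-A3 sequences and -57.5 kcal/mol for that of SNAR-A12.

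The targeted gene, SSB, has no row of its own in this table of noncoding RNAs, so the knockdown itself could not be read from its mRNA. HSALNG0020274, a noncoding annotation that overlaps SSB exons, held 1 to 32 counts in the control libraries and 5 to 3304 in the siSSB libraries. Reads from an siRNA and from the transcript cannot be told apart in that row. Column sums ran from 21565995 to 158244813, but a read is counted in every row it overlaps, so these sums are not depths. Rows of at most 500 nt held 2461679 to 7961824 counts per library, and the snaR-A sum 1490 to 53944. Of the counts in those short rows, snoRNAs, which are nucleolar, made up 76.0 to 82.4% in nuclear, 42.7 to 54.8% in total and 7.94 to 11.8% in cytoplasmic libraries, in the order the labels imply. In raw counts, every nuclear library held more of the nuclear RNAs RNU6-1 and SNORD3A than any cytoplasmic library, and fewer of the cytoplasmic RNAs RNY1, RNY3, VTRNA1-1, MT-TF and MT-TL1. RNU2-1 and SCARNA2 of the nucleus and mitochondrial MT-TV overlapped between these fractions. MALAT1 and NEAT1, long RNAs of the nucleus, were lower in raw counts in every nuclear library, at 102 to 328 and 198 to 398 counts in nuclear and 419 to 698 and 389 to 770 in cytoplasmic libraries (row with most counts of each). With the trimmed mean of M values (TMM) of edgeR as the scaling, in counts-per-million units (CPM), NEAT1 was instead higher in every nuclear library, at 7.09 to 9.88 against 4.05 to 5.80 CPM, as were RNU2-1, SCARNA2 and, against its known place, MT-TV (126.6 to 206.04 against 51.1 to 91.2 CPM). MALAT1, MT-TL1 and VTRNA1-1 overlapped on that scale. The miRNAs of dividing cells MIR17, MIR18A, MIR19B1, MIR20A and MIR92A1 held 130 to 13166 counts each. MIR124-1 of neurons and MIR223 of blood cells were at 0 in all 18 libraries. The list of markers also held MIR142 of blood cells and MIR206 and MIR1-1 of muscle, whose counts are not reported here. The zeros therefore do not show that all listed markers of other cell types were absent.

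The copies were counted very unequally. SNAR-A3 had the highest mean, 1754 counts over the 18 libraries, followed by SNAR-A1 with 1649 and SNAR-A2 with 1616. The 9 genes of the second cluster, which share the sequence of SNAR-A3, had means of 801 to 813. SNAR-A12 and SNAR-A13 had means of 36.3 and 37.3, which were 2.20% and 2.26% of the SNAR-A1 mean, although their RNA differs from SNAR-A1 by the single base C23A.

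**Figure D1:**
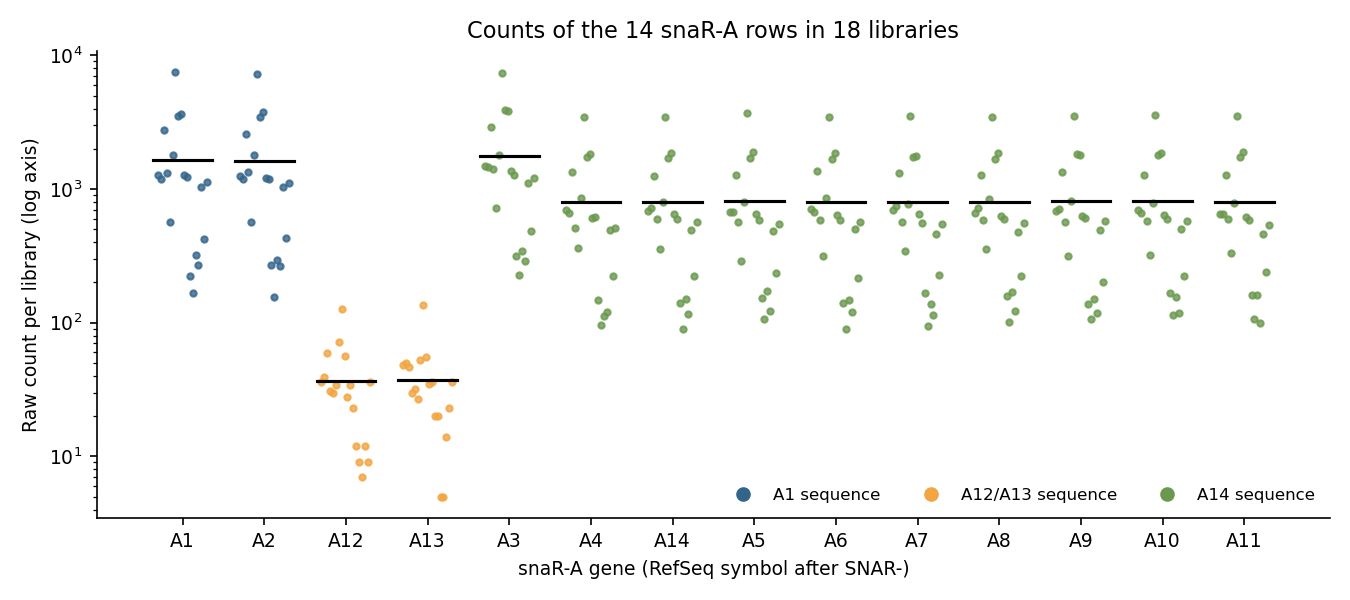
Raw counts (log axis) of the 14 snaR-A rows, with 1 point per library (18 per gene), a black line at the mean and colours for the 3 RNA sequences. SNAR-A1, SNAR-A2 and SNAR-A3 lie highest, the 9 genes of the second cluster sit together at means of 801 to 813, and SNAR-A12 and SNAR-A13 lie lowest.

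Genes with the same sequence and a like position shared counts evenly. The ratio of SNAR-A2 to SNAR-A1 was 0.99 ± 0.06 (SD over 18 libraries), and ran from 0.93 to 1.20. Among the 9 genes of the second cluster the variance over genes within a library was a median of 0.87 times the mean, about the spread of counting alone, with a range of 0.39 to 2.28. SNAR-A3 broke the pattern: it has their sequence, yet held 2.21 ± 0.11 times their mean (SD over 18 libraries). This excess was present in every library, from 2.07 to 2.48, and SNAR-A3 lies in the first cluster. The row of SNAR-A3 is 171 nt long and theirs are 165 nt long. How reads that match several genes were placed is not given in the sources used here, so the count of a single gene is uncertain, and the sum of all 14 rows is the main readout.

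As counted, the composition of the sum hardly moved. The 10 genes of the SNAR-A3 sequence held 73.4 ± 1.67% of it (SD over 18 libraries), SNAR-A1 and SNAR-A2 25.8 ± 2.08%, and SNAR-A12 and SNAR-A13 0.84 ± 0.50%. The first cluster, with 5 of the 14 genes, held 41.1 ± 1.73%, and from 38.4 to 44.3% in single libraries. Its share was 41.1% over control and 41.1% over siSSB libraries. The difference was -0.06 percentage points, with p = 0.94 by an exact two-sided permutation test over 8000 arrangements, the arms being exchanged within each RNA type. SNAR-A3 and the second cluster share 1 RNA sequence, and how their reads were divided between the clusters is not known. For these genes the test could not show whether the clusters changed unequally. The sequences of SNAR-A1 and SNAR-A3 differ only by C114del, and a read that misses this base matches both. Their shares depend on how such reads were placed, so they could not show whether these sequences changed unequally either. The mean share of SNAR-A12 and SNAR-A13 was 0.54 ± 0.39% in control total and 0.71 ± 0.32% in siSSB total RNA, 0.80 ± 0.41% and 1.13 ± 0.88% in nuclear RNA, and 0.74 ± 0.19% and 1.12 ± 0.71% in cytoplasmic RNA (SD, n = 3 each). These shares overlapped between control and siSSB in all 3 RNA types.

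snaR-A fell with SSB knockdown in total RNA. The 14 rows summed to 53944, 26727 and 27962 counts in control libraries 1, 2 and 3, and to 7566, 3375 and 8516 in siSSB libraries. The lowest control library was thus above the highest siSSB library. With TMM, this was 590.8 ± 302.9 CPM in control and 98.9 ± 50.7 CPM in siSSB (SD, n = 3). The sum fell by 2.58 ± 0.51 (SE) on the log2 scale, a fold of 5.97, with an adjusted p of 0.030 by edgeR's quasi-likelihood F-test. That p is Benjamini-Hochberg adjusted over all 13884 features tested, among which the sum had rank 106 by p.

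Of the 14 rows, 13 fell in total RNA at an adjusted p under 0.05, against a background of 0.972% of all rows that fell. That background is 135 of 13883 rows and includes these 13. Near-identical genes may share reads, so the rows are not separate observations. Their log2 changes ran from -2.64 to -1.86 over the 14 rows, with a median of -2.57, where the median of all rows tested was -0.01. SNAR-A3, the highest copy, held 7401, 3910 and 3827 counts in control and 1104, 482 and 1220 in siSSB libraries. The groups did not overlap, and its log2 change was -2.53 ± 0.47 (adjusted p = 0.029). SNAR-A12, the lowest copy, held 72, 127 and 56 counts in control and 12, 9 and 36 in siSSB libraries. It fell by 2.27 ± 0.49 on the log2 scale (adjusted p = 0.044). SNAR-A13, with the same sequence, held 53, 135 and 55 against 14, 23 and 36 counts and did not pass, with a log2 change of -1.86 ± 0.42 (adjusted p = 0.057). The adjusted p of the sum rose to 0.067 without control library 2 and to 0.075 without siSSB library 1. The same omissions left 12 and 5 rows called, beside 69 of 16421 and 203 of 15738 of all rows in either direction.

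Nuclear RNA showed a fall of like size. The sum was 9259, 4914 and 12773 counts in control libraries and 1490, 2331 and 1892 in siSSB libraries, again with no overlap. This was 77.2 ± 41.3 CPM against 15.3 ± 3.07 CPM (SD, n = 3). The sum fell by 2.33 ± 0.35 on the log2 scale, a fold of 5.04 (adjusted p = 0.0046). In nuclear RNA 13 of 14 rows fell, beside 0.349% of all rows, with log2 changes of -2.49 to -1.63 and a median of -2.30. That share is 24 of 6873 rows, and the 24 include these 13 and both rows named lnc-IZUMO2-2, which hold mostly snaR-A reads. Near-identical genes may share reads, so the 14 rows are not separate observations. The median of all rows tested was 0.08. SNAR-A3 had 1402, 726 and 1809 counts in control and 229, 341 and 290 in siSSB libraries, a log2 change of -2.28 ± 0.37 (adjusted p = 0.0059). SNAR-A12 had 31, 30 and 34 against 12, 9 and 7 counts, and fell by 1.83 ± 0.34 (adjusted p = 0.017). SNAR-A13 again missed the threshold, at 30, 32 and 27 against 20, 5 and 5 counts (adjusted p = 0.15). The call of the sum was lost without siSSB library 2 (edgeR, adjusted p = 0.18, though the log2 change was -2.40). In that fit edgeR called 0 of the snaR-A rows and 0 of all 7447 rows. The call was also lost with 3 of the other scalings, at log2 changes of -1.98 to -2.04, where edgeR called 0 of all 6873 rows.

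Cytoplasmic RNA showed no fall that passed the test. The sum was 10249, 10134 and 20075 counts in control and 9633, 9093 and 2223 in siSSB libraries. As CPM this was 478.2 ± 71.7 in control and 242.9 ± 142.2 in siSSB (SD, n = 3). On this scale every siSSB library was below every control library. The log2 change was -0.98 ± 0.46, with an adjusted p of 0.78 from edgeR's quasi-likelihood F-test. By edgeR 0 of 14 rows passed, against 0.27% of all rows lower, while 3 rows had an unadjusted p under 0.05, and DESeq2 also called 0. The log2 changes of the rows ran from -1.06 to -0.70. The ranges of the groups were apart for 13 of the 14 rows, beside 7.53% of all rows that lay apart and lower.

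The siSSB cytoplasmic library 3 stood apart. Its snaR-A sum was 772 CPM of the counts in short rows, while siSSB cytoplasmic libraries 1 and 2 had 2897 and 3155. Vault RNA VTRNA1-2, at 15992 counts there and 14442 and 10932 in the others, did not share this low value, nor did RNY4, at 90018 beside 97045 and 92309 counts. The miRNA total was also unlike the others, at 834239 counts beside 581224 and 336989, so snaR-A was not the only difference of this library. Without this library the cytoplasmic log2 change was -0.57 ± 0.30 (adjusted p = 0.68), and a 3-library group is too small for a test of a single library.

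**Figure D2:**
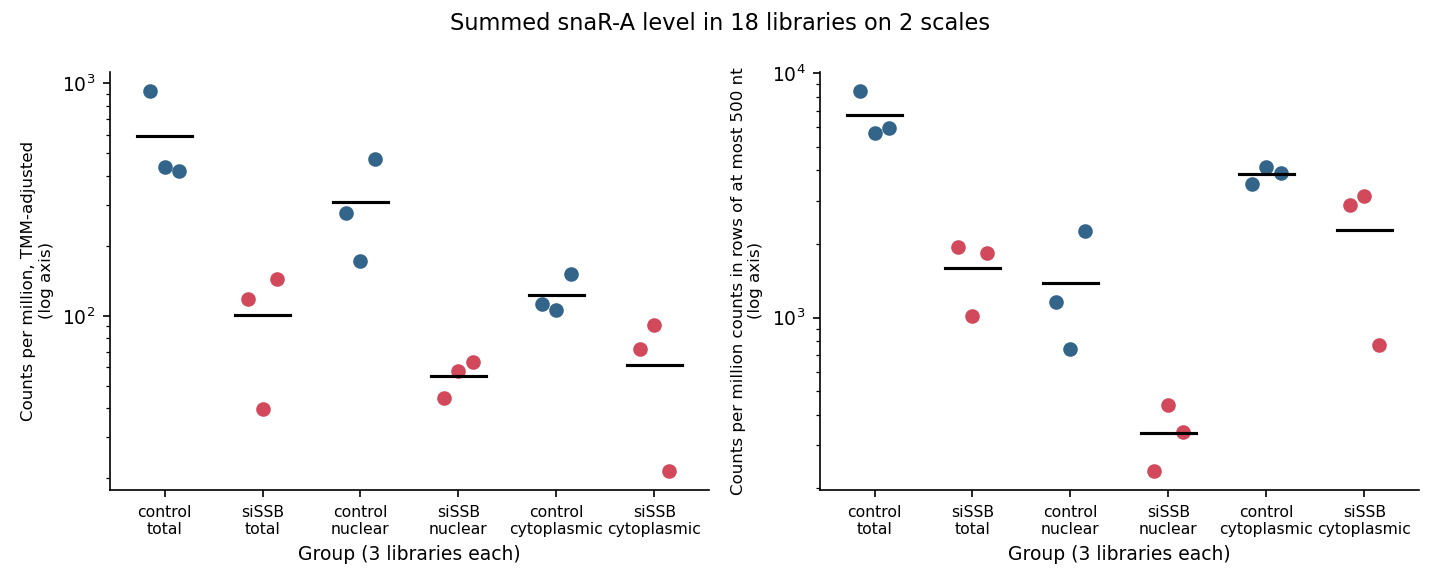
Summed snaR-A level per library (points, 3 per group) and group mean (black line), as TMM-adjusted CPM over all 18 libraries on the left and as CPM of the counts in rows of at most 500 nt on the right, both on log axes. Control total libraries are highest on the right and overlap control nuclear libraries on the left, and siSSB libraries lie below control libraries within each RNA type, with siSSB cytoplasmic library 3 far below the other two.

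Over all RNA types together, mean log2(CPM + 1) with TMM over the 18 libraries was 8.068 in control and 6.003 in siSSB. The difference of -2.07 had p = 0.00025 by the exact permutation test, which is the smallest p that its 8000 arrangements can give. Within each RNA type, 3 against 3 libraries could not go below 0.1 in such a test. The test over all RNA types treats every library as independent. The labels do not say whether the RNA types came from the same cultures. If they did, exchanging whole cultures, 3 against 3, could not give a p below 0.1 either. The fall in nuclear RNA exceeded that in cytoplasmic RNA by 1.47 ± 0.50 on the log2 scale in the interaction fit over 12 libraries. edgeR's quasi-likelihood F-test gave the sum an unadjusted p of 0.0050, rank 154 by p, and an adjusted p of 0.96 over 37494 features. A difference between the fractions was thus not shown after adjustment over all features. In that fit edgeR called 0 of 14 rows (13 at an unadjusted p under 0.05, 0 by DESeq2), and 0.00533% of all rows passed as lower. The fall in total RNA was larger than the cytoplasmic one by 1.61 ± 0.69 (edgeR, unadjusted p = 0.031, adjusted p = 0.98). It differed from the nuclear one by 0.02 ± 0.60 (edgeR, adjusted p = 1.00). These tests share the control and siSSB libraries of the fraction in common.

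Under the other scalings the median log2 change of all rows lay between -0.53 and 0.71 in the knockdown comparisons. Relative to that median the sum lay at -2.67 to -2.47 in total, -2.51 to -2.31 in nuclear and -1.18 to -0.83 in cytoplasmic RNA on the log2 scale, over the 11 settings that kept all libraries. A scaling moves the sum and the median by nearly the same amount. The narrow ranges over scalings therefore follow from construction and are not separate evidence.

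**Figure D3:**
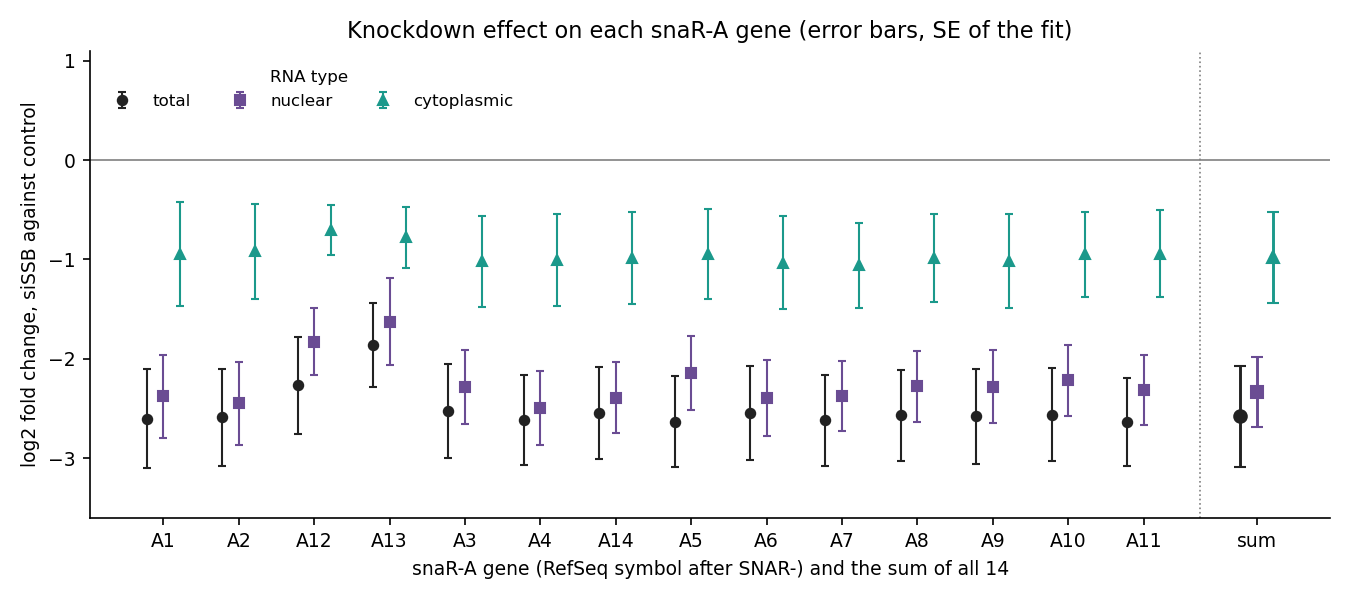
Log2 fold change (siSSB against control) with SE for each of the 14 snaR-A genes and for their sum, in total (circles), nuclear (squares) and cytoplasmic RNA (triangles). Total and nuclear values lie between -2.64 and -1.63, cytoplasmic values between -1.06 and -0.70, and SNAR-A12 and SNAR-A13 lie closest to 0 in each RNA type.

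Which RNA type held the most snaR-A in control cells depended on the scaling. As CPM of the counts in short rows, the sum was 6719 ± 1524 in total, 3853 ± 302 in cytoplasmic and 1385 ± 777 in nuclear control RNA (SD, n = 3). The 3 total libraries lay between 5703 and 8471, above every cytoplasmic library at 3523 to 4117, and these above every nuclear library at 744 to 2249. In siSSB cells the order was cytoplasmic, total and nuclear, at 2275 ± 1307, 1595 ± 509 and 338 ± 102. Here the total and cytoplasmic libraries overlapped, and the nuclear ones were below both. On the TMM scale over 18 libraries, the order in control cells was total at 596 ± 289, nuclear at 307 ± 152 and cytoplasmic at 123 ± 24.6 CPM, with the first pair overlapping. With library size alone total and cytoplasmic control libraries overlapped, at means of 461.9 and 440.9 CPM, and relative to the snoRNA total every cytoplasmic control library was above every total one. In siSSB cells the TMM values were 101 ± 54.7 in total, 61.7 ± 36.1 in cytoplasmic and 55.1 ± 9.86 CPM in nuclear RNA, and all 3 overlapped.

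The nuclear level against the cytoplasmic level also depended on the scaling. With TMM the sum was 290.2 ± 152.1 CPM in nuclear and 105.1 ± 16.4 CPM in cytoplasmic control RNA, a log2 difference of 1.47 ± 0.33 (adjusted p = 0.00086), and all 14 rows were called higher in nuclear RNA, beside 9.21% of all rows. The direction turned with library size alone (-2.68), rows of at most 500 nt (-1.48), SNORD7 and SNORA74A (-3.14) and the snoRNA total (-4.48). SNORD7 (Z30) and SNORA74A (U19) are snoRNAs that the study uses as reference RNAs. Under those scalings the median of all rows moved much further, to between -6.11 and -3.16, from -0.27 with TMM. Relative to that median, snaR-A lay 1.57 to 2.18 higher in nuclear RNA under each of the 11 settings that kept all libraries. A scaling moves the sum and the median nearly alike, so agreement among scalings here follows from construction. It does not settle which fraction held more snaR-A. Other Pol III RNAs place this value. With TMM in control cells, U6 spliceosomal RNA (4 rows named RNU6-1) was higher in nuclear RNA by 3.54 to 3.76 on the log2 scale. RNY4, a Y RNA of Ro particles, was lower by 3.35, and VTRNA1-2, a vault RNA, was lower by 2.87. snaR-A thus lay between the U6 rows and these cytoplasmic RNAs. In siSSB cells the log2 difference of snaR-A was -0.05 ± 0.37 (adjusted p = 0.94), with 0 of 14 rows called by edgeR, none at an unadjusted p under 0.05 and 0 by DESeq2. Under the same 4 scalings it was called lower in nuclear RNA, at -5.87 to -2.75 with 14 of 14 rows called. Those scalings called nearly all rows tested, 25576 to 25877 of 26274 in either direction. In that comparison with TMM 10.9% of all rows were called higher in nuclear RNA.

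Total RNA exceeded cytoplasmic RNA in control cells by 2.38 ± 0.39 on the log2 scale with TMM (adjusted p = 0.00098). All 14 rows were called higher, beside 7.72% of all rows. The rows' values ran from 1.57 for SNAR-A13 and 1.82 for SNAR-A12 to 2.49. This call was lost with library size alone (0.06) and with SNORD7 and SNORA74A (0.19), and the direction turned with the snoRNA total (-1.65). Relative to the median of all rows the sum lay 2.23 to 2.45 higher in total RNA, again a range that the scalings keep narrow by construction. In siSSB cells the same difference was 0.72 ± 0.55 (adjusted p = 0.53). By edgeR 0 of 14 rows passed, with none at an unadjusted p under 0.05 and 0 by DESeq2, beside 5.07% of all rows higher. The direction turned and the difference was called lower in total RNA with library size alone (-1.23, 14 rows called), the snoRNA total (-2.95, 14 rows) and SNORD7 and SNORA74A (-0.87, 1 row), and was uncalled at -0.51 with short rows. The scalings that called it also called, in that order, 17731, 18877 and 14647 of all 19357 rows in either direction.

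Total RNA against nuclear RNA gave 0.65 ± 0.39 in control (adjusted p = 0.24) and 0.69 ± 0.40 in siSSB cells (adjusted p = 0.20). edgeR called 0 of 14 rows in both, with 0 and 1 row at an unadjusted p under 0.05 and 0 by DESeq2, where 17.6% and 20% of all rows were higher in total RNA. The difference passed in both arms with library size alone, the snoRNA total, short rows, and SNORD7 and SNORA74A, at 2.24 to 3.81. Those scalings called most rows in either direction, 10228 to 11293 of 12038 in control and 10407 to 12608 of 13067 in siSSB cells. The comparisons of total with nuclear and with cytoplasmic RNA share the total libraries.

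A level in total RNA above both fractions was also counted for the other short rows. As CPM of the counts in short rows, all 3 control total libraries exceeded all nuclear and cytoplasmic libraries for 45 of 1124 distinct rows with a mean of at least 50 counts (4.004%), and the snaR-A sum was above both fractions in the same way. In siSSB cells 43 rows did so (3.83%), and the snaR-A sum did not. With TMM it did so in neither arm. By group means alone, total RNA was above both fractions for 11.3% of rows in control and 12.4% in siSSB cells on the short-row scale, and for 22.4% and 18.1% with TMM. The mean of the snaR-A sum was above both in each of these except siSSB cells on the short-row scale. These values are relative to the other counts of a library and are not amounts per cell. Numbers of cells, RNA per cell and loss during fractionation cannot be read from these libraries.

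**Figure D4:**
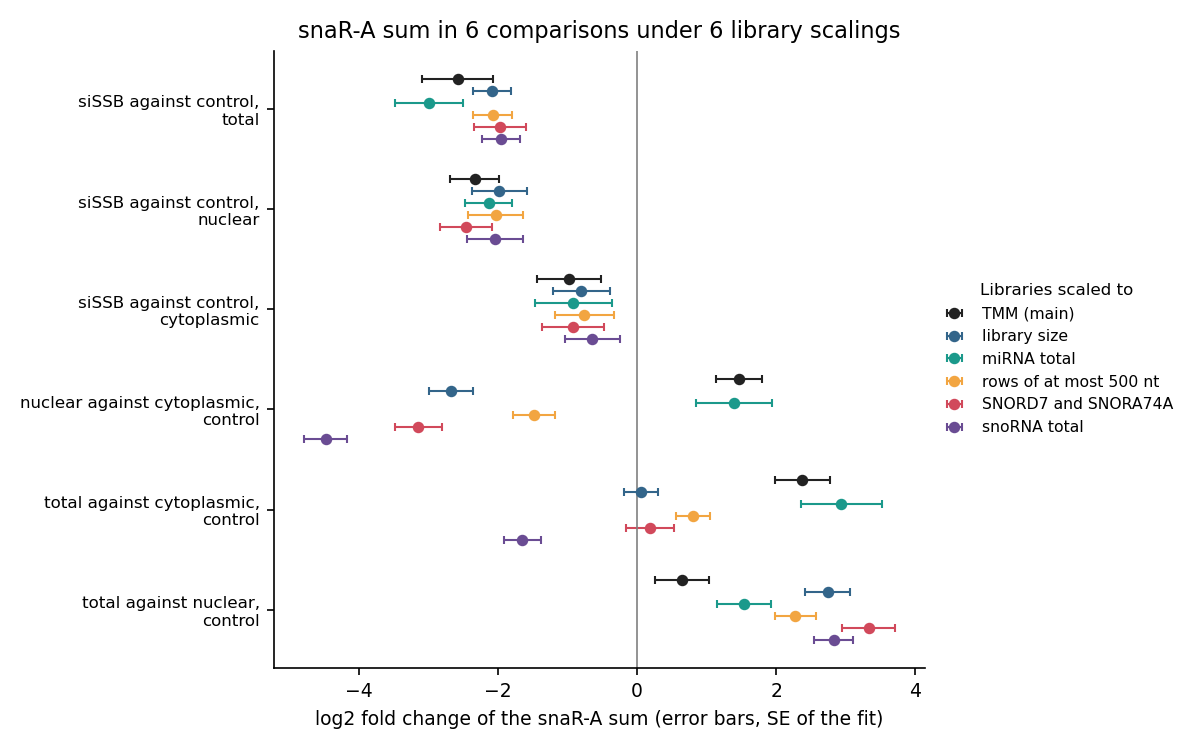
Log2 fold change of the snaR-A sum with SE in 6 comparisons, each under 6 ways to scale the libraries (colours). The 3 knockdown comparisons stay below 0 under every scaling shown, while nuclear against cytoplasmic control RNA runs from 1.47 (TMM) to -4.48 (snoRNA total).

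Among the other RNAs of Pol III, the vault RNAs fell with snaR-A and most others did not pass. VTRNA1-2 held 35523, 29373 and 25537 counts in control and 6149, 4418 and 5801 in siSSB total RNA, a log2 change of -2.58 ± 0.38 (adjusted p = 0.012), the same size as the snaR-A sum. VTRNA1-1 changed by -2.25 ± 0.34 (adjusted p = 0.013) and VTRNA1-3 by -1.67 ± 0.37 (adjusted p = 0.049) in total RNA. Unlike snaR-A, VTRNA1-1 and VTRNA1-2 also passed in cytoplasmic RNA, at -1.83 ± 0.28 (adjusted p = 0.034) and -2.28 ± 0.29 (adjusted p = 0.027). Of 19 rows of other Pol III RNAs, 16 were tested in each knockdown comparison, and 3 fell in total RNA, 2 in nuclear and 2 in cytoplasmic RNA. None of the 19 was called higher. Their median log2 changes were -0.50, -0.57 and -0.04. The Y RNAs, U6, 7SK, 7SL and the RNAs of RNase MRP and RNase P were among those that did not pass. The closest of these to a call was RNY3 in nuclear RNA, at -1.08 ± 0.30 (adjusted p = 0.17).

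The other members of the snaR family were far lower than snaR-A. All 14 rows of SNAR-B to SNAR-I held at most 238 counts in any library, and only the 2 SNAR-B1 rows, SNAR-C3 and SNAR-C4 passed the count filter in any knockdown comparison. SNAR-B1 at chr19:50139097 fell in nuclear RNA by 2.53 ± 0.46 (adjusted p = 0.013), from 71, 232 and 82 to 17, 23 and 30 counts. SNAR-C4 fell there by 2.48 ± 0.44 (adjusted p = 0.012), and SNAR-C3 fell in total RNA by 2.20 ± 0.44 (adjusted p = 0.030). In control cells SNAR-B1 was higher in nuclear than cytoplasmic RNA by 4.20 and 4.45 on the log2 scale, more than the snaR-A sum. Control nuclear library 2 held the fewest snaR-A counts of its group but the most SNAR-B1 counts, 238 and 232 where the other 2 libraries had 55 to 82. SNORD7 and SNORA74A did not pass in any knockdown comparison, with log2 changes of -0.67 ± 0.28 and -0.71 ± 0.41 in total RNA.

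**Figure D5:**
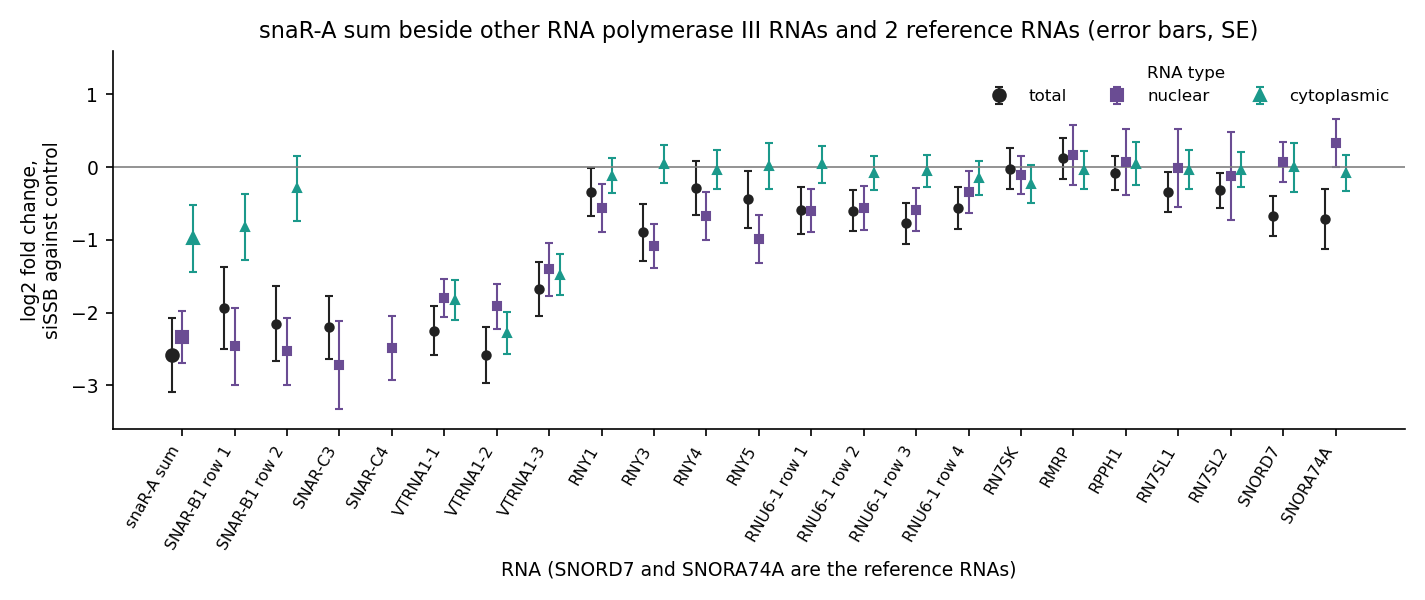
Log2 fold change (siSSB against control) with SE of the snaR-A sum, of other Pol III RNAs and of the reference RNAs SNORD7 and SNORA74A in total (circles), nuclear (squares) and cytoplasmic RNA (triangles). A row without a symbol in an RNA type was too low to be tested there. The snaR and vault RNAs lie lowest, and vault RNAs stay low in cytoplasmic RNA, where the snaR-A sum is at -0.98.

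Longer rows can carry the reads of snaR-A. Both rows named lnc-IZUMO2-2, long noncoding annotations on the minus strand, span part of the second cluster (chr19:50093401-50148251 and chr19:50098124-50148251). The snaR-A rows inside them summed to 96.0% and 95.7% of their counts. Both fell in total RNA by 2.57 ± 0.49 on the log2 scale (adjusted p = 0.030), so their fall repeats that of the copies inside them.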

How the data were processed

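The authors deposited 1 table of raw counts, whole numbers of reads per noncoding RNA row, not normalized. The submitters' processing notes name Bowtie2, bedtools and hg38. Versions, trimming and the placement of reads that match several rows are not given in the sources used here. Strand was not used in counting, so sense and antisense reads cannot be told apart. Rows include flanks around the RNA, and table starts count from 0 and are given here from 1.

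The members and gene lists were chosen with earlier results of these data known. All 14 snaR-A rows were described, and the highest copy, the lowest copy that passed the filter in all 3 knockdown comparisons and copies of equal sequence were taken in full. The fixed list of related RNAs held SNAR-B to SNAR-I and the named single-copy or low-copy Pol III RNAs, and 5 rows most like the sum were named by Pearson's r. The 14 counts were summed per library and the sum was added as 1 row to the whole table, with library sizes and TMM factors from the table without it. Differences were tested with edgeR 4.0.16 (glmQLFit, glmQLFTest, filterByExpr) in R 4.3.3 with limma 3.58.1, each pair of groups on its own 6 libraries and interactions on 12, and p was Benjamini-Hochberg adjusted over all features tested. Single rows came from the fit without the sum. A CPM value of a comparison is scaled within that comparison. An adjusted p under 0.05 counted as called. Errors of log2 changes are SE. The exact permutation tests used log2(CPM + 1) or percent, and treated the libraries of different RNA types as independent.

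Alternatives were library size alone, scaling to 4 sets of RNAs, DESeq2 1.42.0, no count filter, 1 fit of all 18 libraries, a replicate block, identical rows once, a pseudocount of 0.1 CPM, and each library left out. The fits and the permutation test were checked on simulated data. Same-numbered libraries were compared by the correlation of their deviations from group means over 4297 rows. Every pair exceeded 0.1 (0.15, 0.21 and 0.17) for nuclear against cytoplasmic control RNA, and in no other comparison. Differently numbered libraries were not compared, so these correlations have no reference and do not establish a pairing. The labels do not state one. No molecular identifiers are described, so a read is not a molecule. Sequences were read from hg38 at RefSeq positions, and folded with RNAfold 2.7.2. Markers were read as raw counts. The listed markers MIR122 and MIR451A are not reported here.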

Additional observations from a re-analysis of the deposited data

How the results depend on the processing

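The fall of the snaR-A sum in total RNA kept its call under all 10 alternatives that kept every library, at log2 changes of -2.99 to -1.95. Leaving out each library in turn gave -2.87 to -2.08, and the call was lost in 2 of 6 fits. The fall in nuclear RNA kept its direction throughout. Its adjusted p was over 0.05 with library size alone (-1.98), the snoRNA total (-2.04) and rows of at most 500 nt (-2.03), and the omissions gave -2.63 to -1.88. The cytoplasmic change stayed uncalled, at -1.19 to -0.65, and at -1.32 to -0.57 with 1 library left out. The permutation test over all RNA types kept its call at -2.15 to -1.54, and at -2.20 to -1.86 with 1 library left out. The cluster share changed sign in 7 of 18 omissions, from -0.56 to 0.37 percentage points, with no call.

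Comparisons between RNA types depended on the scaling. Nuclear against cytoplasmic control RNA was -2.68 with library size alone, -4.48 with the snoRNA total, -1.48 with short rows and -3.14 with SNORD7 and SNORA74A. It was uncalled with the miRNA total (1.397) and with no count filter (0.97), and omissions gave 1.00 to 1.79. In siSSB cells it was called at -3.85 with library size, -5.87 with the snoRNA total, -2.75 with short rows and -4.68 with SNORD7 and SNORA74A, and was 0.18 with the miRNA total. Omissions gave -0.49 to 0.29. Total against nuclear RNA was called with library size (2.74 in control, 2.63 in siSSB), the snoRNA total (2.83 and 2.91), short rows (2.28 and 2.24) and SNORD7 and SNORA74A (3.33 and 3.81). In control it was also called with the miRNA total (1.54) and with no count filter (1.14). Omissions gave 0.15 to 1.15 in control and 0.29 to 1.09 in siSSB, where it was called without siSSB total library 2 (adjusted p = 0.0054). Total against cytoplasmic control RNA was uncalled with library size (0.061) and with SNORD7 and SNORA74A (0.19), turned with the snoRNA total (-1.65), and ran from 1.88 to 2.59 over omissions. In siSSB cells the uncalled 0.72 turned and was called at -1.23 with library size, -2.95 with the snoRNA total and -0.87 with SNORD7 and SNORA74A, and was uncalled at -0.51 with short rows. The scalings shift the median of all rows by the amounts given above, by their construction.

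The difference between the total and nuclear falls changed sign with library size (-0.11), the miRNA total (-0.87), short rows (-0.041), DESeq2 (-0.0051), no count filter (-0.13), all 18 libraries in 1 fit (-0.088) and the replicate block (-0.27). It ran from -0.51 to 0.50 over omissions, always uncalled. The other interactions kept their direction and stayed uncalled, although without siSSB cytoplasmic library 3 the nuclear minus cytoplasmic difference was -1.84 with an adjusted p of 0.088 and 2 rows called.

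Numbers of snaR-A rows called moved from 13 to 0 in nuclear RNA under the 3 scalings above, from 14 to 2 in nuclear against cytoplasmic control RNA with no count filter, and from 14 to 0 in total against cytoplasmic control RNA with library size and with SNORD7 and SNORA74A. In total against nuclear RNA they rose from 0 to between 9 and 14 under the settings named above, without control nuclear library 3, without siSSB total library 2 and, in siSSB, with no count filter. In siSSB cells they rose from 0 to 14 in nuclear against cytoplasmic RNA under the 4 scalings that called it, and in total against cytoplasmic RNA from 0 to 14 with library size and the snoRNA total and to 1 with SNORD7 and SNORA74A. With replicate number as a replicate block, nuclear against cytoplasmic siSSB RNA was 0.14 in place of -0.05, uncalled. The block changed no call of the sum, and in total RNA it raised the rows called from 13 to 14, SNAR-A13 included. Same-numbered libraries deviated together in every pair for nuclear against cytoplasmic control RNA alone, where the blocked value was 1.34 (adjusted p = 9.3e-05). In the other comparisons the correlations were mixed, so they did not show a pairing, and shared cultures were not excluded. No 2 snaR-A rows had identical counts, so counting identical rows once changed nothing for the sum.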

Other observations

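The 5 short rows whose level followed the snaR-A sum most closely over the 18 libraries were all tRNA loci or overlapped one. They came from 1124 rows of at most 500 nt with distinct counts and a mean of at least 50 counts, and the likeness is Pearson's r of log2(TMM CPM + 1), given as a description across libraries that share group and scaling. tRNA-Gly-CCC-5-1 (chr1:16727260-16727380) had an r of 0.86. tRNA-Leu-TAA-4-1 (chr6:27230530-27230662) had 0.85, and the long noncoding row over it, lnc-POM121L2-3;lnc-PRSS16-1, had 0.85. tRNA-Leu-TAG-1-1 (chr17:8120289-8120420) had 0.84, and tRX-Tyr-NNN-1-1 (chr14:20669149-20669284), a tRNA-like locus, had 0.83. Counts of tRNA-Leu-TAG-1-1 were 42040, 21676 and 15828 with si-scramble and 7093, 3286 and 12218 with si-SSB in total RNA. In siSSB cytoplasmic library 3, where snaR-A was low, it held 3638 counts, beside 4875 and 7867 in libraries 1 and 2. In control cytoplasmic library 3 it held 21755, beside 4952 and 4228, while the snaR-A sum there was 20075, beside 10249 and 10134.

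The 14 snaR-A rows stand at the very end of the deposited table, after rows that otherwise run in chromosome order. No other row is in that last block.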
